A study of Mus musculus with 10 samples.

Results

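Auts2, Tcf4, Mef2c and Arid1b are 4 genes whose human counterparts are mutated in neurodevelopmental disorders, and the binding of the homeodomain factor Dlx2 around them is described here. Their regions were taken from 5 deposited lists of Dlx2-enriched regions as those with a summit, the base of highest enrichment, inside the gene or within 100 kb of either end. For Arid1b the search was also run out to 400 kb. The 4 genes, of 21887 protein-coding genes in the RefSeq table used, held 110 of 14795 regions of the embryonic day 16 (E16) basal ganglia list, 124 of 6333 in the E16 cortex, 11 of 1666 in the E16 olfactory bulb, 14 of 2139 in the postnatal day 3 (P3) cortex and 2 of 734 in the P3 olfactory bulb. The genes and distances were chosen by the positions and strengths of these same regions, so the counts are a description and carry no test.

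The lists come from chromatin immunoprecipitation and sequencing (ChIP-seq) of formaldehyde-fixed mouse brain tissue with an antibody to Dlx2. Each of the 5 groups, basal ganglia, cortex and olfactory bulb at E16 and cortex and olfactory bulb at P3, has 1 library, and the 5 input libraries were not analysed here. The sources used here do not give genotype, strain, sex or the number of animals pooled. With 1 library per group no difference between tissues or ages could be set against the spread between animals. In whole tissue, fewer cells with a bound site and less binding per cell cannot be told apart.

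The 4 proteins act in the nucleus by different routes. Tcf4 is a basic helix-loop-helix E protein that pairs with lineage-specific partners at E-box sequences, and loss of 1 human copy causes Pitt-Hopkins syndrome. Mef2c is a MADS-box transcription factor of differentiating neurons and muscle. Arid1b is a DNA-binding subunit of the BAF (SWI/SNF) chromatin remodelling complex and is mutated in Coffin-Siris syndrome, and Auts2 joins a variant of the Polycomb complex PRC1 and is needed for neuronal migration and neurite growth. Dlx2 itself drives the development of forebrain GABAergic neurons, those that use the inhibitory transmitter GABA, which arise in the embryonic basal ganglia and move to the cortex and the olfactory bulb.

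The strongest regions assigned to Mef2c lay beyond the gene, over C130071C03Rik, a long noncoding RNA gene that spans the microRNA gene Mir9-2. The mature products of Mir9-2 are shown because their hairpin (chr13:83738814-83738885, plus strand) lay inside the widest of these regions. In both, capitals mark the seed, bases 2 to 8. miR-9 is an abundant microRNA of the developing brain that acts on neural progenitors.
mmu-miR-9-5p: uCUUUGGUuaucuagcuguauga
mmu-miR-9-3p: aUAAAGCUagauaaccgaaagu

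The promoter windows below belong to C130071C03Rik and run from 250 bases before to 50 after a start on the plus strand. Regions of both the cortex and the basal ganglia at E16 overlapped them. The first is the outermost of its 3 starts in the RefSeq table of GRCm38.p6, and the second is the one nearest to a strong summit, 198 bp from that of the basal ganglia and 259 bp from that of the cortex. Capitals mark TAATTA or TAATTG, or their reverse complements, which hold the TAAT core that homeodomains bind.
C130071C03Rik at chr13:83721131-83721430: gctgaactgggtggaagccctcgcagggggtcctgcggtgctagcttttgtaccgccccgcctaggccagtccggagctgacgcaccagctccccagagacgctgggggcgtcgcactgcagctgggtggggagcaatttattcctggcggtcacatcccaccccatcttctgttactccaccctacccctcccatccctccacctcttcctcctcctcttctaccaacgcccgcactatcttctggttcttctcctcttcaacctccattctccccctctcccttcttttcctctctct
C130071C03Rik at chr13:83727856-83728155: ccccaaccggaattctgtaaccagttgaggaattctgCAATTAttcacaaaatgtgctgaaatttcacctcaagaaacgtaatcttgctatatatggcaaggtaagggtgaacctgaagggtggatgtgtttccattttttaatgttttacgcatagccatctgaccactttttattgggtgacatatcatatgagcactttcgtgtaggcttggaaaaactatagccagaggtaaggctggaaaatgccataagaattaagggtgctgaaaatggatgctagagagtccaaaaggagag
The second window held 1 such motif and the first held 0. Over all 32851 promoter windows of the table, 1738 held TAATTA and 2628 held TAATTG on either strand, and 12.4% held at least 1 of the pair. These are matches of letters and not sites shown to be bound. The E-box CAGCTG was in the first window and in 16.3% of all windows, and CATCTG was in the second and in 17.2% of all.

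Every one of the 4 genes held summits in 4 lists, those of the 3 E16 tissues and of the P3 cortex, and 2 of them, Auts2 and Mef2c, in all 5. Among all protein-coding genes, 55.2% had at least 1 summit within the same distance in the E16 basal ganglia list, 37.5% in the E16 cortex, 10.7% in the E16 olfactory bulb, 19% in the P3 cortex and 6.13% in the P3 olfactory bulb. The members are long, from 163 kb for Mef2c to 1106 kb for Auts2. Among the 1290 genes at least as long as Mef2c the same shares were 80.5%, 32.8%, 31.9%, 39.1% and 17.4%. Long genes thus more often held a summit in every list except the E16 cortex, where their share was lower. Summits in the same 4 lists were found at 3.13% of all genes. Summits in all 5 were found at 1.47% of all genes and 3.8% of those long genes.

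**Figure D1:**
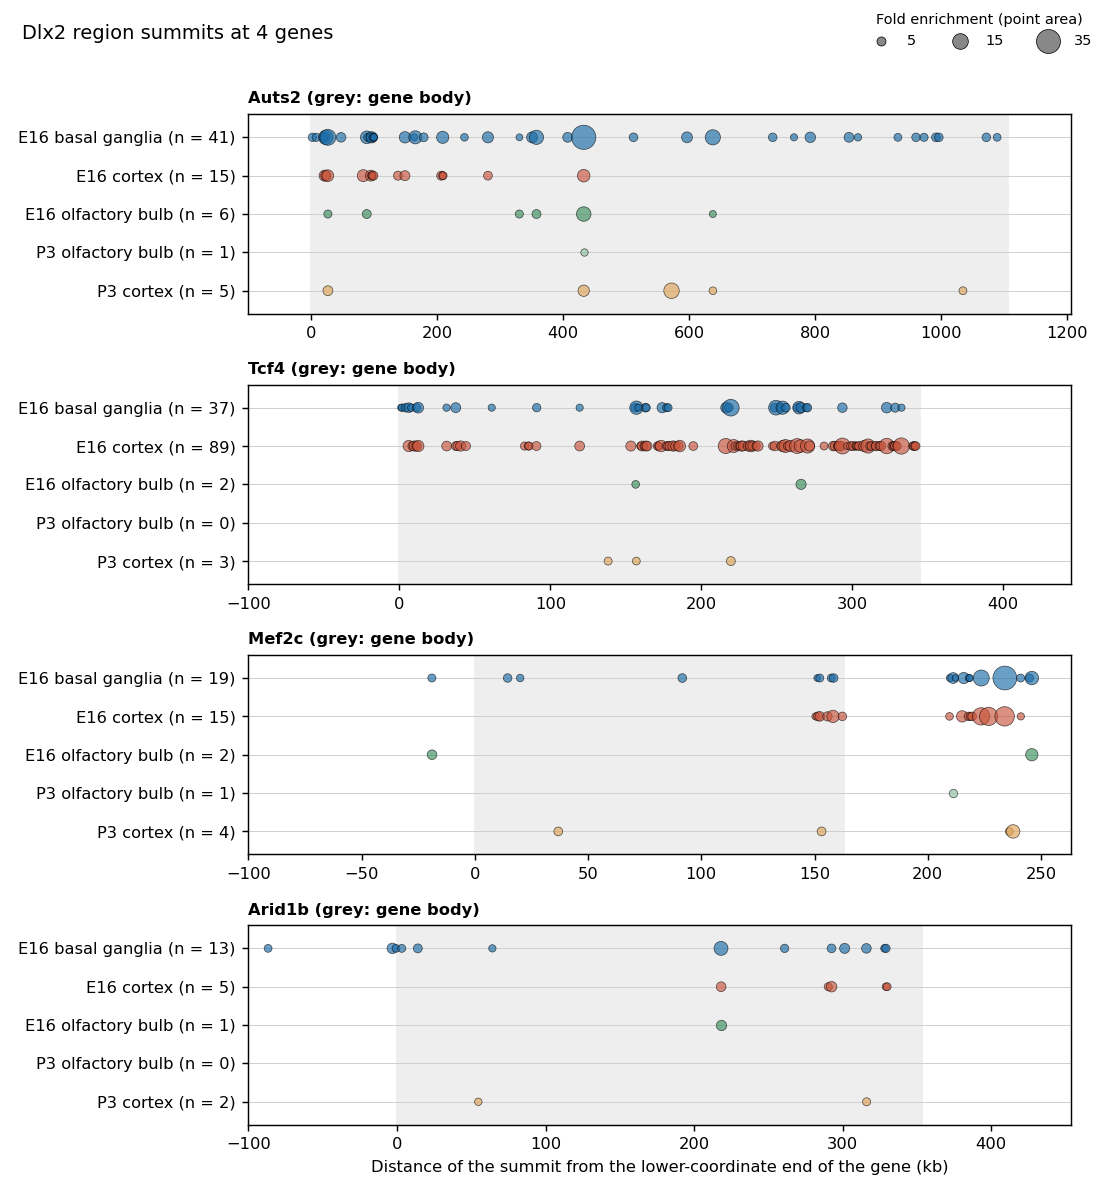
Position of every Dlx2 summit along the 4 genes, in kb from the lower-coordinate end of each gene, with 1 row per list. Point area is the authors' fold enrichment and grey marks the gene body. All summits at Auts2 and Tcf4 lie inside the gene, while the largest points at Mef2c lie to the right of it.

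The members differed in where their regions lay. At Auts2 and Tcf4 every summit of every list lay inside the gene body and none in the 100 kb on either side. The nearest summits outside were 343 and 308 kb away at Auts2 and 213 and 147 kb away at Tcf4. At Mef2c, by contrast, 11 of 19 basal ganglia summits and 9 of 15 E16 cortex summits lay beyond its higher-coordinate end. The distance limit left out no region close to it. The farthest summit inside the limit was 86.7 kb from Arid1b with a fold enrichment of 3.82, and the nearest outside it was the one 147 kb from Tcf4, with 4.69.

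**Figure D2:**
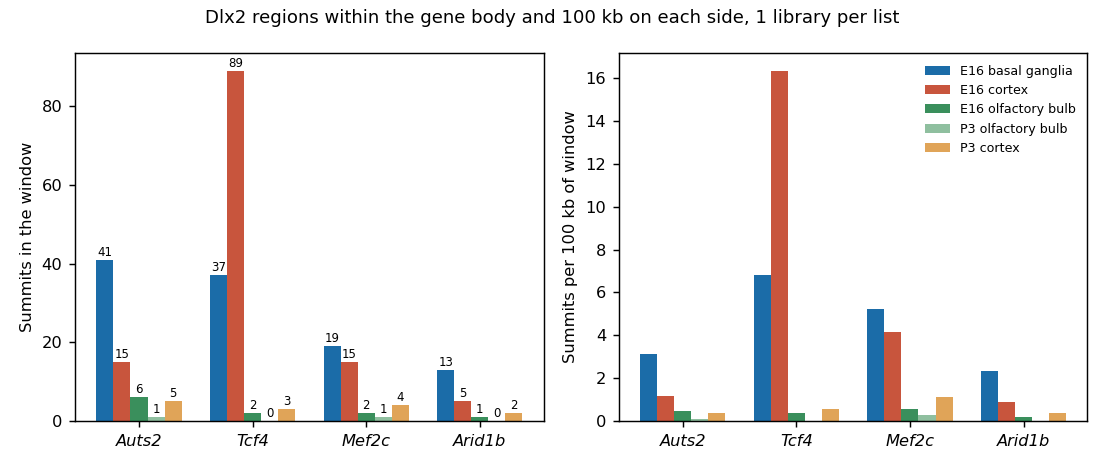
Number of Dlx2 summits in each gene and the 100 kb on both sides (left) and the same per 100 kb of window (right), with 1 bar per list and no replicates. Tcf4 in the E16 cortex stands highest on both scales, at 89 summits and 16.3 per 100 kb.

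Tcf4 (chr18:69343429-69687967, 345 kb) had more summits per length than the other 3 members in the E16 cortex, with 16.3 per 100 kb of window, and in the E16 basal ganglia, with 6.79. In the E16 olfactory bulb and the P3 cortex Mef2c was denser, at 0.551 and 1.10 against 0.367 and 0.551 for Tcf4. At the authors' thresholds Tcf4 was the one member with more regions in the E16 cortex than in the E16 basal ganglia, but Mef2c also had more there with −log10 q of at least 10 (6 against 5) and with equal list length (4 against 2). It held 89 summits in the E16 cortex, 37 in the E16 basal ganglia, 2 in the E16 olfactory bulb, 3 in the P3 cortex and 0 in the P3 olfactory bulb. No other protein-coding gene had as many E16 cortex summits in its window, and the next, the nuclear factor gene Nfib, had 52. More summits in the E16 cortex than in the E16 basal ganglia were found at 11.7% of all genes, and none had a larger surplus than the 52 of Tcf4. The cortex regions covered 92.1 kb, or 26.7% of the gene, and the basal ganglia regions 26.3 kb, or 7.62%. By covered length 1 gene stood above Tcf4 in the cortex list, Nfix with 94.9 kb. When only as many regions as the shortest list holds were taken from each list, the strongest 734, Tcf4 kept 9 in the cortex and 2 in the basal ganglia, and 8 genes then had more in the cortex, led by Dand5 with 12. When regions at most 1 kb apart were joined, a setting chosen after seeing the data, 34 remained against 23 in the basal ganglia, and no gene had more than Tcf4. Markers of cortical glutamatergic neurons were read in the same lists. Of 6 such genes, 6 had a summit in the gene or within 10 kb in the E16 cortex, 4 in the E16 basal ganglia and 0 in the other lists. All protein-coding genes had 17%, 26.4% and, in the E16 olfactory bulb, P3 olfactory bulb and P3 cortex, 3.59%, 2.03% and 6.09%, so that 0 of 6 is near the background in those lists. Neurod2, Neurod6, Tbr1 and Slc17a6 had a summit in both the E16 cortex and the E16 basal ganglia. Emx1 and Slc17a7 had one in the E16 cortex alone. Any part of these genes or their cells in the Tcf4 count was not tested.

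Along Tcf4 the E16 cortex summits became denser toward the higher-coordinate end. Over 5 equal stretches of the gene, in order, the cortex list had 10, 5, 17, 24 and 33 summits. The basal ganglia list had 10, 2, 8, 13 and 4. The lists thus held equal numbers in the first stretch and differed most in the last. Neighbouring cortex summits were 1.58 kb apart in the median, with a largest gap of 38.8 kb.

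**Figure D3:**
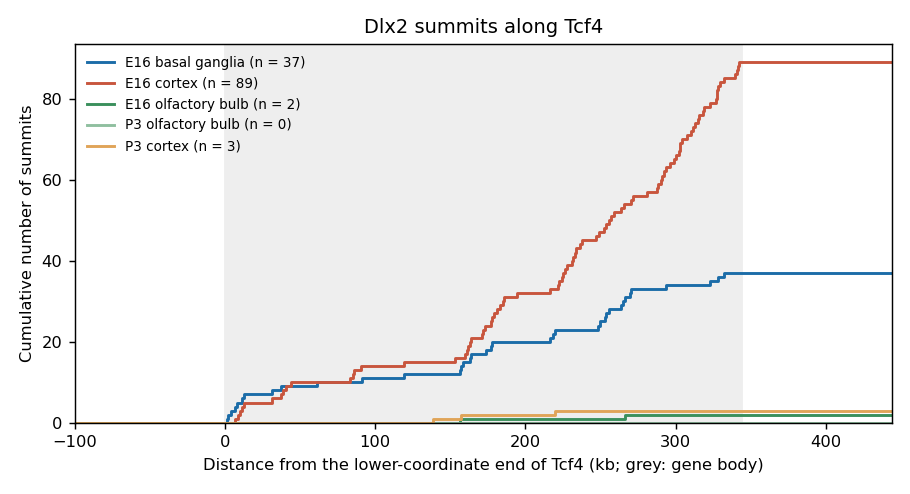
Cumulative number of Dlx2 summits along Tcf4 from its lower-coordinate end, 1 line per list, with the gene body in grey. The E16 cortex and E16 basal ganglia lines have the same height after the first of 5 equal stretches, at 10 summits each, and then separate, ending at 89 and 37.

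The strongest Tcf4 regions were not the same in the E16 tissues. In the cortex the leading region by −log10 q had a fold enrichment of 16.2 and spanned 7413 bp (chr18:69673917-69681329). It was followed by regions of 14.6 (chr18:69664311-69667255) and 15.6 (chr18:69636311-69638088). Each of these met a basal ganglia region of modest enrichment, at 3.18, 6.84 and 5.56 in the same order. In the basal ganglia the leading region by −log10 q had a fold enrichment of 17.2 and ranked 309 of 14795 (chr18:69562623-69563593). The next had 13.4 (chr18:69592316-69594000) and 9.84 (chr18:69607631-69608685). Fold enrichment was computed within each library, so the values stand side by side and their sizes are not compared between tissues.

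Most basal ganglia regions of Tcf4 were also cortex regions, but not the reverse. Of the 37 basal ganglia regions, 30 overlapped a cortex region (81.1%, exact 95% Clopper-Pearson interval 64.8 to 92.0), where the whole list had 26.4%. Of the 89 cortex regions, 24 overlapped a basal ganglia region (exact 95% interval 18.1 to 37.4%), where the whole list had 61.5%. The remaining 65 cortex regions were all missing from the other 4 lists. Both shares depend on the unequal counts, 37 against 89, and on the 26.7% of the gene that cortex regions covered. The whole-list shares do not allow for this, so the comparison cannot separate sharing from these counts. The intervals cover counting error only. Neighbouring regions of 1 gene share a library and a locus and are not replicates.

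The olfactory bulb and P3 lists held few Tcf4 regions. Its leading basal ganglia region was also listed in the P3 cortex, with a fold enrichment of 4.90, and an E16 cortex region of 2876 bp with 10.4 covered both. A second place, chr18:69499458-69501034, joined the basal ganglia (11.01), the E16 olfactory bulb (3.68) and the P3 cortex (3.75) but held no E16 cortex region. One more, chr18:69604731-69611316, was a chain of overlapping regions from all 3 E16 lists. Its olfactory bulb region (6.34) overlapped a basal ganglia region with 6.06 and a cortex region with 9.76. The strongest regions of the chain, with 9.84 in the basal ganglia and 13.6 in the cortex, did not overlap the bulb region. The remaining P3 cortex region (3.91, chr18:69481511-69481914) was in no other list. The postnatal Tcf4 regions were thus few and all below the fold enrichment of 5.

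Auts2 (chr5:131437333-132543220) held the region of the 4 genes that was listed everywhere. It lies 433 kb inside the gene from its lower-coordinate end, at chr5:131869503-131870342. Its fold enrichment was 36.0 in the E16 basal ganglia, 12.9 in the E16 olfactory bulb, 9.73 in the E16 cortex, 7.91 in the P3 cortex and 3.39 in the P3 olfactory bulb. It ranked 26 of 14795 by −log10 q in the basal ganglia and 19 of 1666 in the E16 olfactory bulb. The ranks were 681 of 6333 in the E16 cortex, 223 of 2139 in the P3 cortex and 662 of 734 in the P3 olfactory bulb. By −log10 q it was the strongest Auts2 region in each of the 3 E16 lists, and in the P3 olfactory bulb it stood near the end of the whole list. The 5 summits fell within 73 bp of each other, and the regions were 419 to 840 bp wide. Over the whole series, 34 of 18667 merged regions were in all 5 lists.

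**Figure D4:**
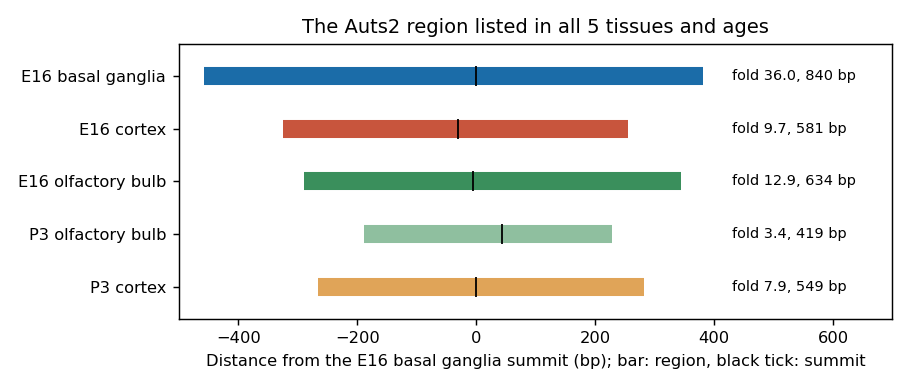
Extent of the Auts2 region listed in all 5 tissues and ages, in bp from the E16 basal ganglia summit, with 1 bar per list and a black tick at each summit. The 5 summits lie within 73 bp, inside regions of 419 to 840 bp.

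Auts2 held 41 summits in the E16 basal ganglia list, which is also the longest list, 15 in the E16 cortex, 6 in the E16 olfactory bulb, 5 in the P3 cortex and 1 in the P3 olfactory bulb. With equal list length the counts were 5, 1, 2, 3 and 1 in the same order. Only 2 other protein-coding genes had 41 or more basal ganglia summits in their window. Per length Auts2 was less exceptional, with 3.14 basal ganglia summits per 100 kb, a density reached by 1598 other genes. The median gene had 0.398 per 100 kb.

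All 15 E16 cortex summits listed at Auts2 lay between 21.1 and 433 kb from its lower-coordinate end, although the gene is 1106 kb long. The 5 P3 cortex summits ran from 26.2 to 1035 kb. The basal ganglia summits ran from 1.66 to 1089 kb, with 19 of the 41 in the first of 5 equal stretches. Of the 15 cortex regions, 12 overlapped a basal ganglia region, where the whole cortex list had 61.5%, as did all 6 of the E16 olfactory bulb, where the whole bulb list had 72.7%. Of the 41 basal ganglia regions 25 were in no other list, and of the whole basal ganglia list 63.5% were in no other.

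Beside the region listed everywhere, Auts2 held one in 4 lists and one in 3. The first, chr5:131463038-131463987, had a fold enrichment of 15.6 in the E16 basal ganglia, 8.46 in the E16 cortex, 4.05 in the E16 olfactory bulb and 5.96 in the P3 cortex. The second, chr5:132074375-132075474, had 14.2 in the basal ganglia, 3.02 in the E16 olfactory bulb and 3.59 in the P3 cortex and held no E16 cortex region. Their summits fell within 147 and 70 bp. A basal ganglia region with 12.5 (chr5:131794338-131795195) was shared with the E16 olfactory bulb alone, where it had 4.86. In the E16 cortex the next strongest were a region of 2190 bp with 7.56 (chr5:131457285-131459474) and one with 8.89 that was in no other list (chr5:131519486-131520035).

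In the P3 cortex the leading Auts2 region was not the one listed everywhere. It had a fold enrichment of 14.6, ranked 67 of 2139, and was in no other list (chr5:132009126-132009809). A weaker P3 cortex region near the higher-coordinate end (3.82, chr5:132472257-132472598) was also in that list alone. The other 3 of its 5 regions overlapped basal ganglia regions, where the whole P3 cortex list had 30.9%, and 2 overlapped E16 cortex regions, where the list had 5.14%. The P3 cortex list is the only one whose region names carry no mark for removed duplicate reads, and its part in these regions was not tested.

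Mef2c (chr13:83504017-83667079, plus strand) had its regions in separate groups: a few before and within the gene, a group at its 3′ end, and a block beyond it. In the E16 cortex list 6 summits lay in the gene, all in the last of 5 equal stretches, and 9 beyond it. The E16 basal ganglia list had 1 before the gene, 7 within and 11 beyond. The E16 olfactory bulb had 1 before and 1 beyond, the P3 olfactory bulb 1 beyond, and the P3 cortex 2 within and 2 beyond.

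The block beyond Mef2c was mostly covered by separate regions, 11 in the E16 basal ganglia and 9 in the E16 cortex. It reached from chr13:83713803 to 83750809 in the basal ganglia, and 79.3% of these 37.0 kb were inside a region. In the cortex it reached from chr13:83713333 to 83745369, with 75.6% of 32.0 kb inside. Its strongest basal ganglia region spanned 13775 bp (chr13:83729348-83743122) with a fold enrichment of 34.8 and ranked 25 of 14795. The cortex list had 2 regions over the same stretch, with 23.2 (chr13:83734725-83743105, rank 63 of 6333) and 20.5 (chr13:83729420-83734481). The next, over the second promoter window printed above, had 15.8 in the basal ganglia and 18.5 in the cortex. The strongest summits of these tissues lay 0.77 and 0.853 kb from the centre of the Mir9-2 hairpin, 71.0 and 70.9 kb from Mef2c. Of all 1003 microRNA hairpins in the RefSeq table, 7.58% overlapped a basal ganglia region, 6.48% an E16 cortex region and 0.199% a P3 cortex region.

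**Figure D5:**
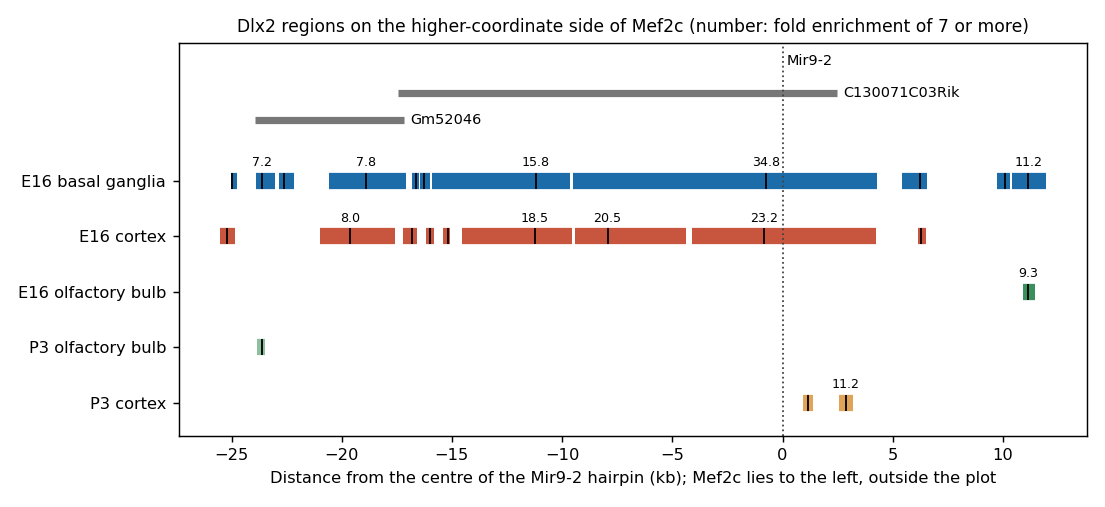
Dlx2 regions beyond the higher-coordinate end of Mef2c, in kb from the centre of the Mir9-2 hairpin, with 1 row per list, black ticks at summits and grey bars for noncoding genes. The E16 basal ganglia and cortex regions cover the hairpin with fold enrichments of 34.8 and 23.2, and the P3 cortex has 2 narrow regions beside it.

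Outside the E16 basal ganglia and cortex the lists held 1 or 2 narrow regions of the block, at different places. The P3 cortex had 2, of 470 and 617 bp, with fold enrichments of 3.65 and 11.2. Both lay inside the wide basal ganglia region, 0.885 and 2.54 kb from the Mir9-2 hairpin and not over it. The E16 olfactory bulb had a region with 9.35 near the far edge of the block (chr13:83749755-83750288), 10.9 kb from the hairpin, where the basal ganglia list had 11.2 and the cortex none. The P3 olfactory bulb had a region with 4.39 at the near edge (chr13:83715016-83715376), inside the noncoding gene Gm52046, where the basal ganglia had 7.19. No base of the block was thus listed in basal ganglia, cortex and olfactory bulb alike.

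Inside and before Mef2c the regions were weaker. The strongest was a cortex region of 2839 bp at the 3′ end with a fold enrichment of 9.32 (chr13:83660562-83663400), which overlapped the start of the noncoding gene Gm52044. The 7 basal ganglia summits within the gene had at most 4.65. A region 19.0 kb before the gene had 3.98 in the basal ganglia and 5.73 in the E16 olfactory bulb. The P3 cortex regions in the gene had 4.77 and 4.68 and were in no other list. None of the 3 Mef2c promoter windows of the RefSeq table was overlapped by a region of any list.

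Arid1b (chr17:4994297-5347656, plus strand) was the least occupied of the 4 within 100 kb. It held 13 summits in the E16 basal ganglia, 5 in the E16 cortex, 1 in the E16 olfactory bulb, 2 in the P3 cortex and 0 in the P3 olfactory bulb. Of the other protein-coding genes, 2.01% had as many basal ganglia summits and 11.1% as many E16 cortex summits. The fold enrichment of its regions reached 11.9 in the basal ganglia and at most 6.76 in the other lists.

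A region inside Arid1b was shared by all 3 E16 tissues. It lies at chr17:5211960-5213289, also within the noncoding gene Gm34854, and its summits fell within 117 bp. Its fold enrichment was 11.9 in the basal ganglia, 6.55 in the olfactory bulb and 5.85 in the cortex, the leading Arid1b region of the first pair and the next to leading of the cortex. The leading cortex region (6.76, chr17:5286454-5287339) was shared with the basal ganglia, where it had 4.70. Beside the start of the gene the basal ganglia list had summits 3.14 and 0.691 kb before it, with 6.72 (chr17:4990734-4991372) and 3.78, and the cortex list had none there. The last of the 3 highest by −log10 q, a basal ganglia region with 6.25 (chr17:5295410-5295874) and a cortex region with 3.85 (chr17:5324172-5324492), were each in no other list. The P3 cortex regions had 4.04 and 3.43. The stronger overlapped a basal ganglia region and the weaker was in no other list.

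The strongest region found from Arid1b lay far outside it. Between 100 and 400 kb from the gene the E16 cortex list had 2 summits, the basal ganglia 3 and the other lists 0. The leading one was a cortex region of 867 bp with a fold enrichment of 39.2, rank 39 of 6333, located 368 kb before the gene (chr17:4625954-4626820). Its summit fell within the noncoding gene Gm34259, and no other list held it. The other 4 had 3.55 to 7.84 and lay on the opposite side, 274 to 371 kb from Arid1b. The strongest of these was a basal ganglia region inside Zdhhc14, a gene of a palmitoyltransferase (chr17:5718793-5719422). Distance alone links these regions to Arid1b.

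Over the 4 genes, 175 merged regions were found, of which 53 were in at least 2 lists (30.3%, exact 95% interval 23.6 to 37.7). Over the whole series 27.1% of merged regions were in at least 2. By gene the share ran from 25% at Arid1b to 55% at Mef2c, and 95 of the 175 were at Tcf4. The interval covers counting error only, since neighbouring regions are not replicates, and it is no test of the members. Of the members' regions, 44 were in the basal ganglia alone, 72 in the E16 cortex alone, 6 in the P3 cortex alone and 0 in either olfactory bulb list alone. Of the whole lists, 63.5% of the basal ganglia, 38.4% of the E16 cortex, 63.7% of the P3 cortex, 18.3% of the E16 olfactory bulb and 13.8% of the P3 olfactory bulb regions were in no other list. Tcf4 supplied 65 of the 72. Regions wider than 1 kb numbered 20 in the basal ganglia and 33 in the E16 cortex, with 0 in the other 3 lists, and 27 of the 33 were at Tcf4. Such regions made up 33.3% of the cortex regions at Mef2c, 30.3% at Tcf4, 6.67% at Auts2 and 0% at Arid1b, and 25.2% of the whole cortex list. In the basal ganglia they were 31.6% at Mef2c, 23.1% at Arid1b, 18.9% at Tcf4 and 9.76% at Auts2, and 13.8% of the list. They were 0.36% of the E16 olfactory bulb list, 0.681% of the P3 olfactory bulb list and 1.92% of the P3 cortex list.

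Genes that work with the members were read from lists chosen with earlier results of these data known, with the same window of 100 kb. Of 6 E protein and Id protein genes, whose products pair with Tcf4 or block it, 6 held a summit in the E16 basal ganglia, 5 in the E16 cortex, 2 in the E16 olfactory bulb, 2 in the P3 cortex and 1 in the P3 olfactory bulb. Tcf3, which encodes a close relative of Tcf4, led in the basal ganglia (fold enrichment 25.0) and the cortex (28.4). It held 9 and 13 summits there. Tcf12, the remaining E protein gene, had 10 in the basal ganglia and 0 in the E16 cortex. Id1, which encodes an inhibitor of E proteins, had 7 in each. The median of the list was 7 summits in the basal ganglia and 3 in the cortex, where all protein-coding genes had medians of 1 and 0.

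Of 7 genes of the MEF2 family and the class IIa histone deacetylases that repress MEF2 proteins, 7, 5, 4, 3 and 1 held a summit in the E16 basal ganglia, E16 cortex, E16 olfactory bulb, P3 cortex and P3 olfactory bulb. All protein-coding genes had 55.2%, 37.5%, 10.7%, 19% and 6.13% in the same order, also for the gene list before this one. The strongest regions in the windows of Mef2d and Mef2b had fold enrichments of 31.0 and 29.7 in the basal ganglia. In the E16 cortex they had 24.8 and 39.8. Those in the Mef2d window covered the microRNA gene Mir9-1, and their summits lay nearest to another protein-coding gene, Rhbg, at 27.7 kb. The deacetylase gene Hdac5 had 13.8 and 25.8 in the same tissues. Mef2a had 1 summit in the basal ganglia and 0 in the E16 cortex.

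Of 28 genes of BAF subunits, 21 held a summit in the E16 basal ganglia, 20 in the E16 cortex, 5 in the E16 olfactory bulb, 10 in the P3 cortex and 4 in the P3 olfactory bulb. Bcl11b and Bcl11a, zinc finger subunits of the neuronal complex, had 39 and 18 basal ganglia summits and 16 and 24 in the cortex. Arid1a, the paralog of Arid1b, had 15 and 7. Of 11 genes of the AUTS2 family and its PRC1 partners, 7, 5, 4, 2 and 0 held a summit in the same order. The strongest region lay in the window of Ring1, a catalytic PRC1 subunit gene (30.3 in the basal ganglia and 47.0 in the cortex). That in the window of Fbrsl1, a paralog of Auts2, followed (27.9 and 29.6). Of 34 other regulator genes linked to neurodevelopmental disorders, 32, 28, 8, 10 and 1 held a summit. The strongest regions in the window of Chd3, which encodes a chromatin remodeller, had fold enrichments of 37.7 in the basal ganglia and 52.2 in the cortex. Zeb2 was the one with a P3 olfactory bulb summit. These shares stand beside the 55.2%, 37.5%, 10.7%, 19% and 6.13% of all genes.

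The genes with the most similar pattern were sought by the rank of the strongest region in each list, on a scale from 0 for none to 100 for the strongest, as the Euclidean distance over the 5 lists. For Auts2 the nearest was Mef2c (distance 17.8), followed by Dlx1 and Dlx2 (18.3), which are neighbours and share their regions. For Tcf4 they were Pecam1 (4.42) and the neighbours Fbrsl1 and Lrcol1 (4.83). For Mef2c they were Faap20, Morn1 and Prkcz (14.2), which share 1 locus. For Arid1b they were Cep164 (15.8) and Arid1a with its neighbour Pigv (17.7). Each list is 1 library, and the measure does not use the number of summits, in which Pecam1, with 1 in the E16 cortex, is unlike Tcf4.

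The tissue labels were read against marker genes, with a summit in the gene or within 10 kb. Of 7 GABAergic neuron genes 7 were occupied in the E16 basal ganglia, 7 in the E16 cortex, 6 in the E16 olfactory bulb, 4 in the P3 cortex and 4 in the P3 olfactory bulb. All protein-coding genes had 26.4%, 17%, 3.59%, 6.09% and 2.03%. The 4 of the P3 cortex were Dlx1, Dlx2, Dlx5 and Dlx6, and Gad1, Gad2 and Slc32a1 had no summit there. Those of the P3 olfactory bulb were Dlx5, Dlx6, Gad1 and Gad2. Dlx1 and Dlx2 are neighbours, so the genes are not independent counts. The 6 glutamatergic genes are given with Tcf4 above. Of 14 markers of oligodendrocytes, astrocytes, microglia and endothelial cells, 4 were occupied in the basal ganglia, 1 in the E16 cortex and 0 elsewhere, and the 3 astrocyte markers were at 0 in every list. Occupancy at a gene is not its expression.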

How the data were processed

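The authors deposited 1 list of regions per Dlx2 immunoprecipitation in the narrowPeak layout. Trimmomatic, Bowtie2, SAMtools, MACS2 and the build mm10 are named per the submitters' processing notes, without versions. The sources used here state neither the calling threshold nor its control, nor how deeply each library was sequenced. The deposited fold enrichment is a ratio of signal over local background at the summit, and the deposited −log10 p and −log10 q belong to the same region. They were used within a list alone. The deposited score restates −log10 q and was not used. The deposited offset placed each summit. List lengths ran from 734 to 14795 regions, and absence from a list means only that a region did not pass its threshold.

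Gene positions were those of RefSeq on GRCm38.p6, which is mm10, without exons or strand. The strand of Mef2c and Arid1b is that of their promoter entries, which matched 2 of the 4 members. Coordinates count from 1. No genome sequence was used here, so sequences were printed for promoter and microRNA entries only. An overlap of 1 bp or more made regions shared. Counting and merging ran in Python 3.11.15 with pandas 2.3.3 and were tested on simulated data. Shares carry exact 95% Clopper-Pearson intervals from scipy 1.17.1.

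The members, gene lists, markers and rules were chosen with earlier results of these data known. Named were the members, up to 3 regions highest in −log10 q per member and list, regions in at least 3 lists, the strongest region 100 to 400 kb from Arid1b, up to 3 genes per gene list, and the 3 genes of most similar pattern. Nfib, Nfix, Dand5, Mef2a, Arid1a and a few weaker regions were named after their values were seen. Alternatives covered the window, stricter −log10 q, equal list length, region width and the definition of sharing. One gene of the last gene list is not reported here by name.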

Additional observations from a re-analysis of the deposited data

How the results depend on the processing

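The count of member summits over the 4 genes together stayed within 1.5 times its value in most settings and fell with stricter thresholds. With −log10 q of at least 10 the counts were 43 in the E16 basal ganglia, 49 in the E16 cortex, 6 in the E16 olfactory bulb, 4 in the P3 cortex and 0 in the P3 olfactory bulb. With equal list length they were 10, 14, 5 and 4 in the first 4 lists, and the P3 olfactory bulb kept its 2. With the gene body alone the P3 olfactory bulb had 1. With regions at most 1 kb apart joined, chosen after seeing the data, the E16 cortex had 55. The counts of Mef2c alone depended more on the window. With the gene body alone Mef2c fell from 19 to 7 in the E16 basal ganglia and from 15 to 6 in the E16 cortex. With a 50 kb flank it had 11 and 7, and with regions at most 1 kb apart joined 10 and 6. Auts2 and Tcf4 kept the same counts with the gene body alone. The merged regions in at least 2 lists, 53 of 175, became 27 of 229 with a reciprocal overlap of 50%, 22 of 71 with −log10 q of at least 10, 7 of 23 with equal list length and 31 of 168 without regions wider than 1 kb. For genes at least as long as Mef2c the share with a summit was 80.5%, 32.8%, 31.9%, 39.1% and 17.4% in the E16 basal ganglia, E16 cortex, E16 olfactory bulb, P3 cortex and P3 olfactory bulb. The basal ganglia and E16 cortex shares stayed within 1.5 times the 55.2% and 37.5% of all genes, and the other shares did not. Another 37 values, all of them counts, also stayed within 1.5 times. Tcf4 had the highest E16 cortex count of all genes in every one of these settings except equal list length. No paired analysis was possible because each group has 1 library. The depth of the libraries is unknown, so the fewer regions of the olfactory bulb and P3 lists are not shown to be absent binding.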

Other observations

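The block beyond Mef2c has counterparts at the other microRNA-9 genes, which were looked up after the Mir9-2 values were seen. All 3 Mir9 hairpins lay inside a region of the E16 basal ganglia list and of the E16 cortex list. Of the 1003 microRNA hairpins in the RefSeq table, 7.58% overlapped a region of the first list and 6.48% of the second. At Mir9-1 (chr3:88215598-88215686) the basal ganglia region spanned 11294 bp with a fold enrichment of 31.0 and the cortex region 23006 bp with 24.8, both ranked 42 in their lists. These were also the strongest regions in the window of the MEF2 family gene Mef2d. At Mir9-3 (chr7:79505264-79505353) they spanned 19000 and 27627 bp with 46.8 and 63.0 and ranked 3 in both lists, with summits 10.3 kb from the hairpin. At Mir9-2 the ranks were 25 and 63. The summits at Mir9-1 lay 0.445 and 0.424 kb from the hairpin centre.

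The other lists had no region over any of the 3 hairpins. Within 10 kb the E16 olfactory bulb had 1 region at Mir9-1, 9.83 kb away with a fold enrichment of 7.31, and 0 at the other loci. The P3 cortex had the 2 regions beside Mir9-2 and 0 at the others, and the P3 olfactory bulb had 0 at all 3. The loci lie nearest to different protein-coding genes by their E16 basal ganglia summits: 27.7 kb from Rhbg at Mir9-1, 71.0 kb from Mef2c at Mir9-2 and 47.7 kb from Polg at Mir9-3.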
